A study of Rattus norvegicus with 18 samples.

Results

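The genes examined were the chemokine receptors of lung leukocytes, in RNA-seq data of the lungs of rats given a multiwalled carbon nanotube (MWCNT). The list named 9 receptors, and the rows with these gene symbols were taken from the deposited tables of 22081 genes. Rows for 8 of the 9 were found, *Ccr1*, *Ccr3*, *Ccr6*, *Ccr7*, *Cxcr3*, *Cxcr4*, *Cxcr6*, and *Cx3cr1*, while no row carried the symbol *Ccr2*, which was not analysed here. The samples were 18 male F344/DuCrlCrlj rats, killed at Year 0.5, Year 1, or Year 2, with 3 vehicle controls and 3 rats given MWCNT each time. The treated rats received MWNT-7, a straight and rigid MWCNT, at 0.5 mg/kg by intratracheal instillation every 4 weeks from 9 weeks of age, and the control rats received saline with Tween 80, in which the fibers had been suspended. RNA was taken from small pieces of the accessory lobe without gross tumor nodules, so that each value is a mean over all cells of a piece of lung. In such bulk samples, fewer cells of a type and less RNA per cell cannot be told apart.

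Chemokines are small secreted proteins that guide leukocytes, and they act through receptors with 7 membrane-spanning segments that signal by inhibitory G proteins. In the lung, CCR1 and CX3CR1 are known from monocytes, macrophages, and other myeloid cells, CCR3 from eosinophils, basophils, mast cells, and some T cells, and CXCR3 and CXCR6 from effector and resident T cells and NK cells. CCR6 is carried by B cells, some T cells, and dendritic cells, CCR7 directs mature dendritic cells and naive T cells to lymph nodes, and CXCR4, the receptor of CXCL12, is found on most leukocytes and on other cells.

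In the Rnor_6.0 build of the files, 3 of the genes lay close together, namely *Cxcr6* (ENSRNOG00000006319) at chr8:132869712-132870767 on the plus strand, *Ccr1* (ENSRNOG00000006715) at chr8:132996649-133002201 on the minus strand, and *Ccr3* (ENSRNOG00000006736) at chr8:133029625-133040997 on the plus strand. *Cx3cr1* (ENSRNOG00000018509) lay on the same chromosome at chr8:128740756-128754514, on the minus strand. The others were on the minus strand of other chromosomes, *Ccr6* (ENSRNOG00000012964) at chr1:53065025-53087474, *Ccr7* (ENSRNOG00000010665) at chr10:87057136-87067456, *Cxcr3* (ENSRNOG00000003305) at chrX:71614346-71616997, and *Cxcr4* (ENSRNOG00000003866) at chr13:45314933-45318878. The handling of reads that fit several genes, and of reads by strand, was not given in the sources used here, so that reads shared by related receptors or by overlapping genes could not be separated.

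RefSeq promoter sequences, from 250 bases before to 50 bases after the gene start in the GRCr8 build, matched 7 of the 8 receptors. They are shown for the 3 receptors with the largest log2 fold changes between treated and control rats at any time point, 5′ to 3′ on the strand of the gene, at chr8:132439217-132439516 for *Ccr1*, chr8:128677017-128677316 for *Cx3cr1*, and chr8:132499999-132500298 for *Ccr3*. Capitals mark, on either strand, 3 short motifs that are searched for here, GAGGAA as a core of PU.1 sites in myeloid genes, AGATAA as a core of sites for GATA factors, and TGTGGT as a core of RUNX sites.
Ccr1: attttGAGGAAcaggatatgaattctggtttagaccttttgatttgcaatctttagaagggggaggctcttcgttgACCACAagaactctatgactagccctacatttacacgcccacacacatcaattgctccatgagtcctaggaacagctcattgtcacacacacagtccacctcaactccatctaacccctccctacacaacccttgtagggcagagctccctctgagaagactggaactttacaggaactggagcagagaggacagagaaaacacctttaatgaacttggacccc
Cx3cr1: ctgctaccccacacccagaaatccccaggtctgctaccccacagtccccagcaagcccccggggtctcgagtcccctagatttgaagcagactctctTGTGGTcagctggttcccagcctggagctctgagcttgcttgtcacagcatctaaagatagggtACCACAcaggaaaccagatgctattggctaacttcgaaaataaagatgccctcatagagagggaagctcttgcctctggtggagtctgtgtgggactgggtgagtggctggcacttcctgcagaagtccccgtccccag
Ccr3: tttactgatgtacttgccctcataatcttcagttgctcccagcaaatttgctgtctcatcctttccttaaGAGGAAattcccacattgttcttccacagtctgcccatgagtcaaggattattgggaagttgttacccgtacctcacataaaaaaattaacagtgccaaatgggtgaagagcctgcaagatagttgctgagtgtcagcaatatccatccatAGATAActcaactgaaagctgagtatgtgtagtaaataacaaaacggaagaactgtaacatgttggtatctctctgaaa
GAGGAA or TTCCTC was present in 4 of the 7 promoters (*Ccr1*, *Ccr3*, *Ccr6*, and *Cxcr6*) and in 27.6% of 33469 promoters. AGATAA or TTATCT was present in 3 (*Ccr3*, *Ccr6*, and *Cxcr6*) and in 11.6% of all promoters. TGTGGT or ACCACA was present in 3 (*Ccr1*, *Ccr6*, and *Cx3cr1*) and in 17.3% of all promoters. These matches describe the letters only.

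The libraries of control rats held 13297643 to 17868851 counts and those of treated rats 14661589 to 21130757. The summed TPM of 5 lung epithelium markers was at least 46899 in every rat. Markers of heart muscle were also measured, and their summed TPM lay between 67.8 and 541 in controls and between 14.1 and 168 in treated rats, and the part of this tissue in the results was not tested. TPM, an expression value scaled for gene length and for the library total, is used for levels. Fold changes are log2 fold changes of counts from edgeR with TMM normalization, and a DEG has a Benjamini-Hochberg FDR below 0.05 in the quasi-likelihood test with a log2 fold change beyond -1 or 1.

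*Cxcr4* was the receptor gene with the highest level in all 6 groups, with group means from 97.4 to 135 TPM. *Ccr1*, *Cx3cr1*, *Ccr7*, and *Cxcr3* had group means between 7.69 and 32.6 TPM. *Cxcr6* ranged from 5.29 to 12.7 TPM, *Ccr6* from 2.58 to 6.79 TPM, and *Ccr3* from 0.749 to 3.58 TPM. *Ccr3* was the lowest of the 8 in each group except the control rats of Year 2, where *Ccr6* was at 3.34 TPM. The summed TPM of the 8 genes overlapped between treatments at every time point, for example at Year 2, with 185 to 197 in controls and 183 to 202 in treated rats. The plot of TPM in every rat shows that the sum, carried mainly by *Cxcr4*, held receptors that were higher and receptors that were lower in the treated rats.

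**Figure D1:**
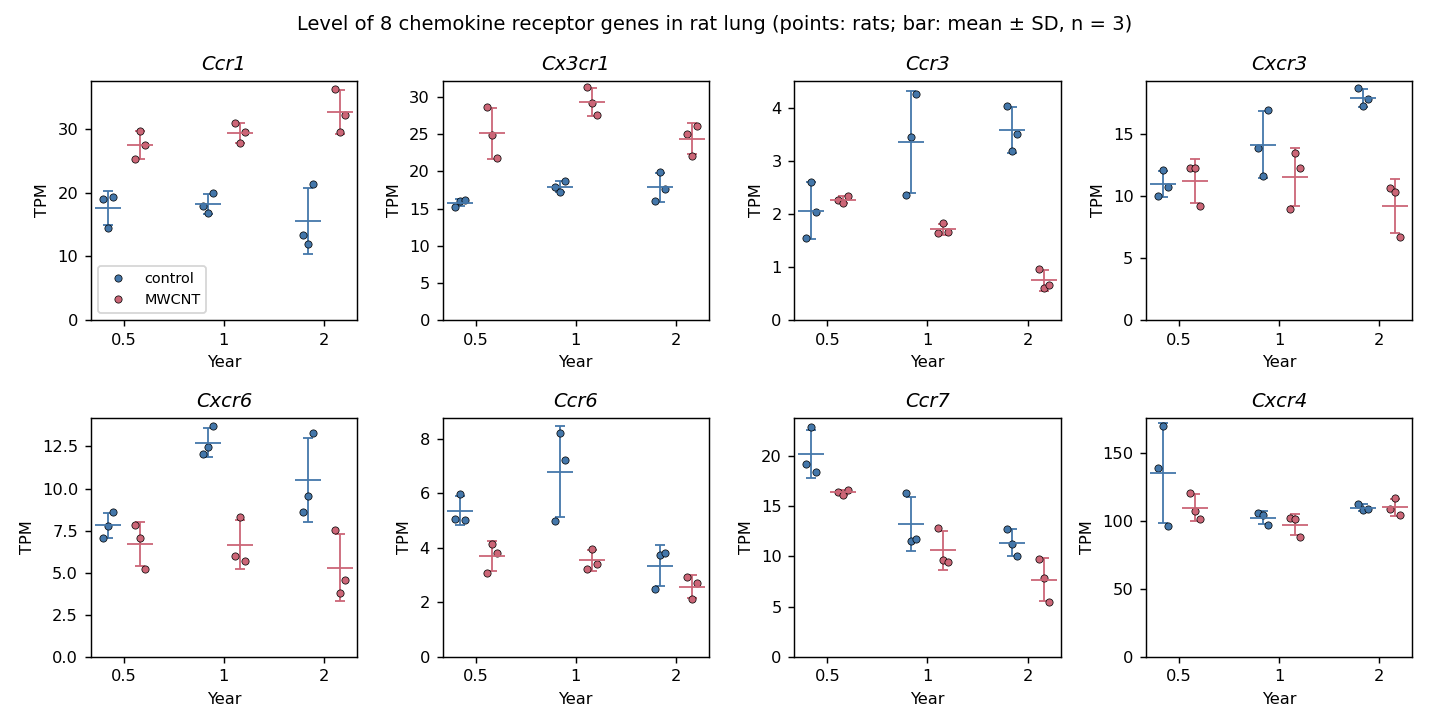
TPM (vertical axis, from 0) of the 8 receptor genes at Years 0.5, 1, and 2 (horizontal axis) in control (blue) and MWCNT-treated (red) rats, with a point for each rat and bars for the mean ± SD of 3 rats. The treated rats were above all control rats in *Ccr1* and *Cx3cr1* at every time point, and the 3 treated rats were lowest in *Ccr3* at Year 2, at 0.613 to 0.971 TPM.

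The first question was which receptors differed between treated and control rats at each time point. No receptor gene was a DEG at Year 0.5 or Year 1, and 2 of 8, *Ccr1* (higher) and *Ccr3* (lower), were DEGs at Year 2. Among all genes tested, 9.1% were DEGs at Year 0.5, 10.2% at Year 1, and 16.4% at Year 2, and the shares of higher and lower DEGs at Year 2 were 8.17% and 8.22%. The unadjusted p of edgeR was below 0.05 for 2 receptors at Year 0.5 and for 5 at Year 1, beside 47.8% and 50.2% of all genes, and DESeq2 and limma on TPM called none as DEGs at either. By the FDR alone, 2 receptors passed at Year 0.5, 5 at Year 1, and 5 at Year 2, where 38.8%, 41.2%, and 49.2% of all genes did. The CPM ranges of treated and control rats were apart for 4, 5, and 5 receptors, beside 51.7%, 54.9%, and 59.8% of all genes. The median log2 fold change of the 8 genes was 0.06, -0.07, and -0.25 at Years 0.5, 1, and 2, beside -0.02, 0.00, and -0.01 over all genes tested.

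*Ccr1*, the receptor of CCL3, CCL5, and several other inflammatory chemokines, was higher in the treated rats at all 3 time points. At Year 0.5, the levels in control rats were 19.0, 14.5, and 19.3 TPM, and those in treated rats were 25.4, 29.7, and 27.5 TPM. At Year 1, the levels were 17.9, 16.9, and 20.0 TPM against 30.9, 27.8, and 29.6 TPM. At Year 2, they were 13.3, 12.0, and 21.4 TPM against 36.2, 29.5, and 32.2 TPM. Every treated rat lay above every control rat of its time point, and control replicate 3 of Year 2 was the highest of its group. The log2 fold change was 0.79 ± 0.12 (SE, n = 3 rats per group, edgeR FDR 0.00126) at Year 0.5, 0.92 ± 0.09 (edgeR FDR 0.000129) at Year 1, and 1.29 ± 0.20 (edgeR FDR 0.000594) at Year 2, the last a 2.45-fold rise. In the order of group means, the 3 treated groups stood above the 3 control groups with no overlap, while neighbors within each treatment overlapped.

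*Cx3cr1*, the receptor of fractalkine (CX3CL1) on patrolling monocytes and tissue macrophages, was also higher in the treated rats at all 3 time points. The control rats had 15.2, 16.1, and 16.1 TPM at Year 0.5, 17.9, 17.3, and 18.7 TPM at Year 1, and 16.1, 19.9, and 17.7 TPM at Year 2. The MWCNT-treated rats had 28.6, 24.9, and 21.8 TPM at Year 0.5, 31.4, 29.3, and 27.6 TPM at Year 1, and 25.0, 22.1, and 26.1 TPM at Year 2. The 9 treated rats therefore lay above the 9 control rats, and the control rats varied little. Log2 fold changes were 0.81 ± 0.13 (edgeR FDR 0.00122), 0.95 ± 0.10 (edgeR FDR 0.00018), and 0.66 ± 0.12 (edgeR FDR 0.00188) at Years 0.5, 1, and 2, below the DEG limit each time. Without MWCNT replicate 3 of Year 1 it was 1.00 at Year 1 and passed that limit.

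*Ccr3*, the eotaxin receptor, was lower in the treated rats at Year 1 and Year 2. Because the level was low, the counts are given. At Year 0.5, the control rats had 42, 59, and 49 reads, and 59, 79, and 62 were counted after treatment. At Year 1, the counts were 53, 84, and 123 against 44, 57, and 45, and at Year 2, 97, 78, and 78 against 25, 18, and 18. The groups overlapped at Year 0.5 and were apart in TPM at Year 1 and Year 2. In the fit of each time point, the log2 fold change was 0.29 ± 0.24 (edgeR FDR 0.368) at Year 0.5, -0.73 ± 0.24 (edgeR FDR 0.037) at Year 1, and -2.04 ± 0.27 (edgeR FDR 0.000279) at Year 2, the last a 4.11-fold fall. The value at Year 2 ranged from -2.29 to -1.39 over all alternatives, and *Ccr3* remained a DEG with each rat of Year 2 left out. The value at Year 1 lost its FDR call without control replicate 2 (FDR 0.0905) or 3 (FDR 0.163), or without MWCNT replicate 1 (FDR 0.0897) or 3 (FDR 0.0901).

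The receptors of effector T cells and NK cells, *Cxcr3* and *Cxcr6*, each passed the FDR at a single time point in the main edgeR fit. These were Year 2 and Year 1, and both genes were lower in treated rats there. For *Cxcr3*, which binds the interferon-induced chemokines CXCL9, CXCL10, and CXCL11, the control rats had 18.7, 17.3, and 17.9 TPM and the treated rats 10.6, 10.3, and 6.71 TPM at Year 2. These groups were apart, and *Cxcr3* fell by 0.74 ± 0.19 on the log2 scale (edgeR FDR 0.00977). At Years 0.5 and 1 the groups overlapped, with log2 fold changes of 0.18 (edgeR FDR 0.408) and -0.05 (edgeR FDR 0.859).

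For *Cxcr6*, the CXCL16 receptor of resident T cells, the control rats had 12.0, 12.5, and 13.7 TPM and the treated rats 5.97, 8.32, and 5.72 TPM at Year 1. The groups were apart, and the log2 fold change was -0.68 ± 0.21 (edgeR FDR 0.0282). This call was lost when any single rat of Year 1 other than MWCNT replicate 2 was left out, with FDRs of 0.0504, 0.0612, and 0.0954 without control replicates 1, 2, and 3 and of 0.081 and 0.0845 without MWCNT replicates 1 and 3. At Year 2, the levels were 8.61, 9.56, and 13.3 TPM in control rats and 7.55, 3.78, and 4.54 TPM in treated rats, apart in TPM but not in TMM-adjusted CPM. The log2 fold change of -0.77 ± 0.31 (95% interval -1.46 to -0.07) did not pass in the main fit (edgeR FDR 0.0641). Without MWCNT replicate 1 of Year 2, the treated rat with the highest level, it was -1.13 (edgeR FDR 0.0142). The FDR at Year 2 was below 0.05 in 7 of 16 alternatives. These included at least 10 counts in every rat (0.0481), library size only (0.0252), the likelihood ratio test (0.0494), and the model of all 18 rats (0.0202). A fall of *Cxcr6* at Year 1 alone was thus not shown.

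*Ccr6*, the receptor of CCL20, had a mean of 6.79 ± 1.66 TPM (SD, n = 3) in control rats and 3.53 ± 0.384 TPM in treated rats at Year 1. The single rats had 4.97, 8.20, and 7.22 TPM against 3.24, 3.97, and 3.39 TPM, without overlap. The log2 fold change was -0.70 ± 0.24 (edgeR FDR 0.0422) at Year 1, -0.39 (edgeR FDR 0.196) at Year 0.5, and -0.15 (edgeR FDR 0.694) at Year 2. At Year 0.5 the treated rats also lay below all controls, and *Ccr6* was lower by the FDR with limma on log2(TPM + 1) (-0.45, FDR 0.0313) and log2(TPM + 0.1) (-0.54, FDR 0.0356). However, these 2 fits moved the median log2 fold change of all genes at Year 0.5 to -0.15 and -0.16, so they are not independent evidence of a fall. The call at Year 1 was lost without control replicate 2 (FDR 0.152) or 3 (FDR 0.125), or without MWCNT replicate 1 (FDR 0.108) or 3 (FDR 0.104).

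*Ccr7* did not pass the FDR between treated and control rats in edgeR at any time point. The control means were 20.2 ± 2.42, 13.2 ± 2.69, and 11.4 ± 1.35 TPM (SD, n = 3) at Years 0.5, 1, and 2, and the treated means 16.4 ± 0.219, 10.6 ± 1.93, and 7.69 ± 2.15 TPM. The 95% interval of the log2 fold change was -0.43 to 0.12 at Year 0.5, -0.51 to 0.35 at Year 1, and -0.88 to 0.18 at Year 2, so that a fall of more than a log2 unit lay outside all 3 intervals. With limma on TPM, *Ccr7* was lower by the FDR at Year 0.5 with a pseudocount of 0.1 (-0.29, FDR 0.049) and at Year 2 with pseudocounts of 1 (-0.53, FDR 0.0435) and 0.1 (-0.59, FDR 0.0454). In these fits the median log2 fold change of all genes was also below 0, at -0.16 for Year 0.5 and at -0.20 and -0.22 for Year 2.

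At Year 2, *Cxcr4* had 112.6, 108.4, and 108.9 TPM in controls, which the treated rats overlapped with 108.8, 117, and 104.6 TPM. The log2 fold change of 0.22 ± 0.07 (edgeR FDR 0.0325) passed with TMM normalization, but was 0.05 (FDR 0.611) with library size only, which moved the median log2 fold change of all genes at Year 2 to -0.18. For *Cxcr4* it was 0.16 (FDR 0.0915) with upper quartile normalization and 0.00 with limma on TPM, where the medians of all genes were -0.20 and -0.22. The FDR was also above 0.05 without control replicate 2 (0.0989) or 3 (0.0762) or without MWCNT replicate 1 (0.0931) or 2 (0.112). At Year 0.5, the control rats had 139, 170, and 96.6 TPM, a wide spread that included all 3 treated rats, and at Year 1 the groups overlapped. Without control replicate 3 of Year 0.5, the log2 fold change at that time was -0.35 (FDR 0.0331).

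**Figure D2:**
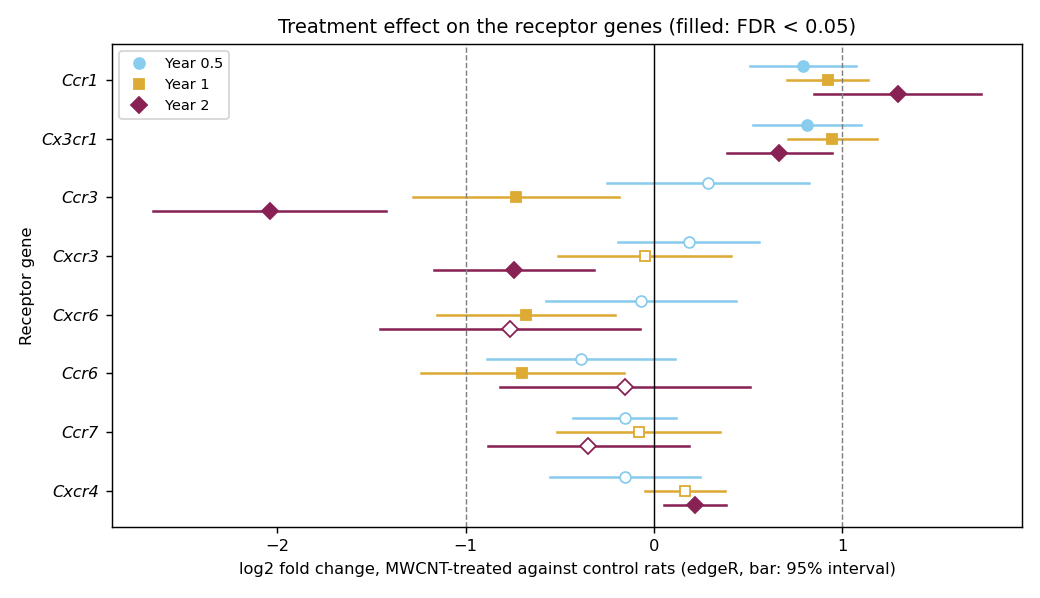
Log2 fold change of MWCNT-treated against control rats (horizontal axis) for each receptor gene (vertical axis) at Year 0.5 (circles), Year 1 (squares), and Year 2 (diamonds), from edgeR with 3 rats per group. Lines are 95% intervals, filled symbols have an FDR below 0.05, and dashed lines mark log2 fold changes of -1 and 1. *Ccr3* lies at -2.04 at Year 2, and *Ccr1* and *Cx3cr1* lie right of 0 at all 3 time points.

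Whether the treatment effect itself changed with time was tested in one model of all 18 rats. Only *Ccr3* passed, and only between Year 2 and Year 0.5, where its effect was lower by 2.32 ± 0.35 on the log2 scale, written as a difference of -2.32 (edgeR FDR 0.00531). Of all genes, 1.31% passed this comparison. Between Year 2 and Year 1 the difference for *Ccr3* was -1.30 ± 0.35 (edgeR FDR 0.0814), and between Year 1 and Year 0.5 it was -1.03 ± 0.34 (edgeR FDR 0.545). In these 2 comparisons 0 receptors passed in edgeR, beside 0.478% and 0% of all genes, while 2 and 1 receptors had an unadjusted p below 0.05, as did 16.5% and 8.49% of all genes, and DESeq2 called 0. The difference between Year 2 and Year 0.5 was 0.51 ± 0.23 for *Ccr1* (edgeR FDR 0.332) and -0.92 ± 0.29 for *Cxcr3* (edgeR FDR 0.137). A lower effect on *Cxcr3* at Year 2 than at Year 0.5 was thus not shown.

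The levels within each treatment were then compared over time. In the MWCNT-treated rats, *Ccr3* and *Ccr7* were DEGs between Year 2 and Year 0.5, 2 of 8 receptors beside 2.34% of all genes. *Ccr3* fell by 1.52 on the log2 scale (edgeR FDR 0.00103), of which 1.18 fell between Year 1 and Year 2 (log2 difference -1.18, edgeR FDR 0.0141), where *Ccr3* was the only DEG among the receptors beside 0.903% of all genes. Without MWCNT replicate 2 of Year 2 the latter was -1.04 (FDR 0.0716). *Ccr7* fell by 1.00 on the log2 scale between Year 0.5 and Year 2 (edgeR FDR 0.00317). Without MWCNT replicate 3 of Year 2, which had 5.47 TPM, *Ccr7* fell by 0.80 (FDR 0.0151) and was no longer a DEG.

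In the control rats, 0 receptors were DEGs between Year 2 and Year 0.5 (0.633% of all genes), where the unadjusted p of edgeR was below 0.05 for 4 receptors, beside 24% of all genes, and DESeq2 called 0. By the FDR alone, 3 receptors passed beside 6.65% of all genes. *Ccr7* was lower at Year 2 (log2 difference -0.82, edgeR FDR 0.023), and the fall in treated rats differed from this one by -0.19 (95% interval -0.78 to 0.40). The call in control rats was lost without control replicate 1 (FDR 0.065) or 2 (FDR 0.0645) of Year 0.5 or control replicate 2 of Year 2 (FDR 0.089). *Ccr3* and *Cxcr3* were higher in control rats at Year 2 than at Year 0.5, with log2 differences of 0.81 (edgeR FDR 0.0497) and 0.72 (edgeR FDR 0.0422). Both were close to the threshold, and each was lost without single rats, with FDRs up to 0.201 for *Ccr3* without control replicate 1 of Year 0.5 and 0.156 for *Cxcr3* without the same rat. With all rats kept, *Ccr3* was lost with no filter (FDR 0.0571), and both were lost with the replicate block (FDRs 0.0679 and 0.0556). The lower *Ccr3* of treated rats at Year 2 therefore stood beside a higher mean in the control rats of that year, a rise that was not firmly shown. It also stood below the level of earlier treated rats. *Ccr6* fell by 1.00 in control rats between Year 1 and Year 2 (edgeR FDR 0.0174), at the DEG limit, beside 0.499% of all genes. No receptor was a DEG between Year 0.5 and Year 1 in either treatment by edgeR or DESeq2, beside 0.0472% of all genes in treated rats and 0% in control rats, with 2 and 4 receptors, and 9.24% and 7.01% of all genes, at an unadjusted p below 0.05.

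The ligands of the receptors were counted next, from a list of 19 genes of which 18 were tested, *Ccl26* having 0 counts in every rat. Of these 18, 7 were DEGs at Year 0.5 and all 7 were higher. At Year 1, 7 were higher and 1 lower, and at Year 2, 6 were higher and 3 lower. The median log2 fold change of the list was 0.59, 0.69, and 0.75 at Years 0.5, 1, and 2. *Ccl2*, *Ccl3*, *Ccl7*, *Ccl9*, and *Ccl12* were higher DEGs at all 3 time points. Of these, *Ccl12* was near the floor in control rats, with 3, 6, and 0 reads at Year 0.5, 2, 2, and 2 at Year 1, and 4, 4, and 3 at Year 2. Levels of *Ccl2*, which attracts monocytes through CCR2, were 5.80 ± 2.46, 3.22 ± 1.28, and 6.80 ± 0.490 TPM in control rats (SD, n = 3) and 72.2 ± 14.9, 79.1 ± 13.7, and 77.3 ± 2.76 TPM in treated rats. The CCR1 ligand *Ccl9* had log2 fold changes of 4.21, 3.87, and 4.45 and *Ccl3* of 2.12, 1.95, and 1.86, while *Ccr1* itself had values between 0.79 and 1.29. *Ccl5*, another ligand of CCR1, was lower, at -0.92 (edgeR FDR 0.00122), -0.78 (edgeR FDR 0.00867), and -1.21 (edgeR FDR 0.0461). At Year 2 its spread was wide, with 668 ± 228 TPM in control rats and 249 ± 170 TPM in treated rats. The read counts of these groups overlapped. *Cx3cl1* was higher at each time point beside its receptor gene, with log2 fold changes of 0.76, 1.20, and 1.15 (highest edgeR FDR 0.000437).

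*Ccl11*, the eotaxin that binds CCR3, was lower at the same time points as *Ccr3*. Its control means were 8.64 ± 2.17, 9.34 ± 1.84, and 3.94 ± 0.780 TPM and its treated means 6.94 ± 1.10, 3.30 ± 0.660, and 0.586 ± 0.0981 TPM at Years 0.5, 1, and 2. Its log2 fold change was -0.18 (edgeR FDR 0.599), -1.24 (edgeR FDR 0.00557), and -2.51 (edgeR FDR 0.000687). The value at Year 2 rested on 32, 34, and 21 reads in control rats and only 5, 6, and 4 in treated rats, so that depth limits its precision. The treatment effect at Year 2 was lower than at Year 0.5 by 2.33 ± 0.42, a log2 difference of -2.33 (edgeR FDR 0.013), the only ligand of the 18 with such a call. In the control rats, *Ccl11* was a lower DEG at Year 2 than at the earlier times, whereas *Ccr3* was not lower there. The CCR3 ligand genes *Ccl24* and *Ccl7* did not follow *Ccl11*. *Ccl5*, whose product also binds CCR3, was lower at each time point, as given above. *Ccl24*, a further eotaxin, had log2 fold changes of -0.41 (edgeR FDR 0.186), 0.05 (edgeR FDR 0.899), and 0.27 (edgeR FDR 0.401), and *Ccl7*, which binds CCR3 as well as CCR1 and CCR2, had 4.20, 5.25, and 4.02.

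The ligand genes of CXCR3 differed among themselves. *Cxcl11* was higher at Year 0.5 and Year 1 (log2 fold changes 2.04 and 1.93). *Cxcl10* was higher at Year 0.5 (edgeR FDR 0.0133) and, below the DEG limit, at Year 2 (0.75, edgeR FDR 0.0244). *Cxcr3* was lower by the FDR at Year 2, while a change of its treatment effect with time was not shown. *Cxcl9* was lower at Year 2 (-0.60, edgeR FDR 0.00857). *Cxcl16*, the ligand of CXCR6, was higher at each time (0.94, 0.90, and 0.96, highest edgeR FDR 0.000186) while *Cxcr6* was not. *Ccl21*, which guides CCR7-bearing cells into lymph vessels, was lower at each time (-0.68, -0.56, and -1.08), and *Ccl19* passed no test. *Cxcl9*, *Cxcl16*, *Ccl19*, *Ccl24*, and the other ligands that were never DEGs are named as partners of the receptors, which was decided after their values were seen.

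**Figure D3:**
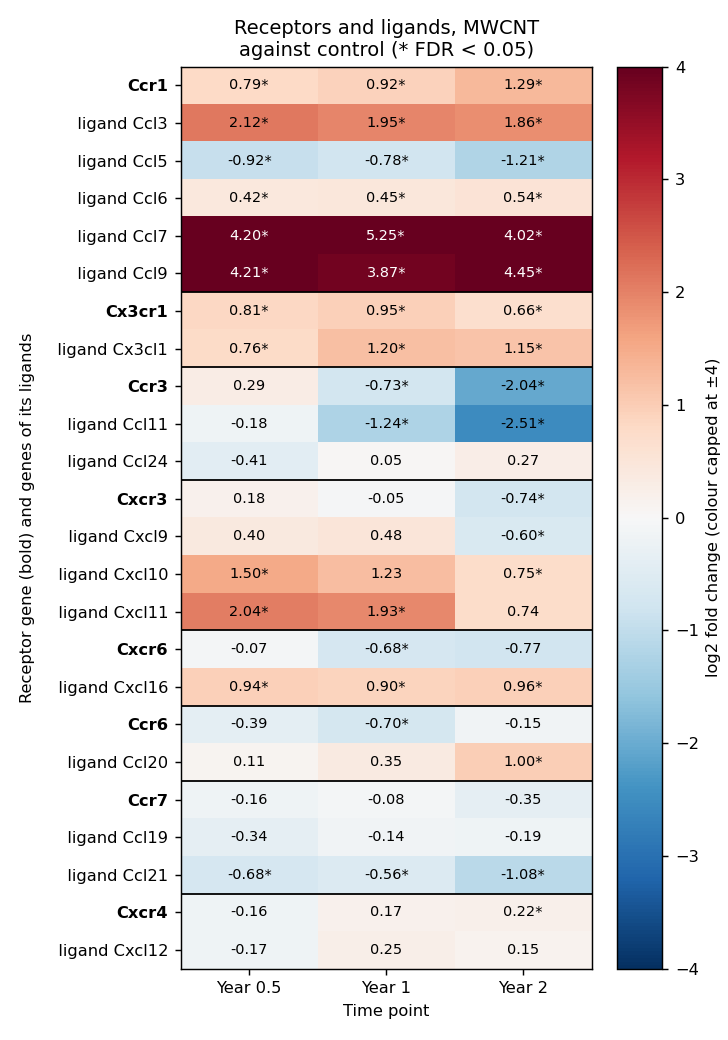
Log2 fold changes of MWCNT-treated against control rats at Years 0.5, 1, and 2 (columns) for each receptor gene (bold) and the genes of its main ligands (rows), from edgeR with 3 rats per group, with * for an FDR below 0.05. Red is higher and blue lower in treated rats, and *Ccr3* and *Ccl11* are both blue at Year 1 and Year 2, at -0.73 and -2.04 and at -1.24 and -2.51.

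Among 9 other chemokine receptors, 2 were DEGs at Year 0.5 (*Ccr8* and *Xcr1*, both higher), 1 at Year 1 (*Xcr1*), and 1 of the 7 tested at Year 2 (*Xcr1*). *Ccr8*, a receptor of some regulatory and type 2 T cells, had a low level of 0.286 ± 0.132 TPM in control rats and 1.86 ± 0.229 TPM in treated rats at Year 0.5. *Xcr1*, which marks cross-presenting dendritic cells, had log2 fold changes of 1.71, 1.43, and 1.16. The atypical chemokine receptors bind chemokines without G protein signaling and remove them. Of the 3 measured, 1, 2, and 1 were lower DEGs at Years 0.5, 1, and 2 and none was higher. *Ackr4*, which removes CCL19 and CCL21, fell by 1.12, 1.43, and 2.64 on the log2 scale (highest edgeR FDR 0.00264), and at Year 2 its level was 18.5 ± 3.20 TPM in control rats and 2.55 ± 0.245 TPM in treated rats. *Ackr2* was lower at Year 1 (-1.35, edgeR FDR 0.0252).

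Of 12 measured signaling genes below the receptors, 1 was a higher DEG at every time point. *Rgs1*, which ends G protein signals, had log2 fold changes of 2.46, 1.99, and 2.88. *Grk5*, a kinase that desensitizes receptors, was a lower DEG at Year 2 (-1.05, edgeR FDR 5.17e-05). The other 10 were DEGs at no time.

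Markers of leukocyte types also changed, some in the direction of the receptors they are known with and some not, and their part in the receptor values was not tested. Of 7 macrophage markers, 5, 4, and 6 were higher DEGs at Years 0.5, 1, and 2 and 0 were lower, with a summed TPM of 298 to 372 in controls and 744 to 1078 in treated rats. Of 4 measured monocyte markers, *Cd14* was a higher DEG at all 3 time points and *Nr4a1* a lower DEG at Year 2. Of 4 neutrophil markers, *S100a9* was a higher DEG at every time point and *S100a8* at Years 1 and 2, with a summed TPM of 231 to 353 in controls and 615 to 1132 in treated rats at Year 2, while *Csf3r* and *Mmp8* did not pass. Of 3 measured endothelial markers, 1, 0, and 3 were lower DEGs at Years 0.5, 1, and 2, and all 3 were lower by the FDR each time, with a summed mean of 1731 ± 193 TPM in controls and 586 ± 111 TPM in treated rats at Year 2. Beside the lower *Cxcr3* and *Ccr3* of Year 2, 6 of 9 T cell markers were lower DEGs, *Cd3d*, *Cd3e*, *Cd3g*, *Cd5*, *Lck*, and *Cd8a*. *Cd4*, which rat macrophages also carry, was higher (1.81, edgeR FDR 2.24e-06). The summed TPM of the T cell list therefore overlapped at Year 2, with 295 to 339 in controls and 270 to 302 in treated rats. At Years 0.5 and 1, 0 of the T cell markers were lower DEGs in edgeR, although 5 and 2 were lower by the FDR. The regulatory T cell markers went the other way. Of these 3, *Foxp3* and *Ctla4* were higher DEGs at Years 0.5 and 1 and *Ctla4* at Year 2, and 0 were lower. Their level was low, with a summed mean of 6.00 ± 1.67 TPM in controls and 7.69 ± 0.846 TPM in treated rats at Year 2. Of 5 measured NK cell markers, 2 (*Klrd1* and *Prf1*) were lower DEGs at Year 2, and by the FDR alone 3, 4, and 2 were lower at Years 0.5, 1, and 2. Their summed TPM was 120 to 161 in controls and 61.9 to 86.5 in treated rats at Year 0.5, 172 to 214 against 83.1 to 109 at Year 1, and, with overlap, 175 to 388 against 46.6 to 181 at Year 2. The NK cell markers were thus lower at Years 0.5 and 1 as well, where *Cxcr3* did not pass.

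The cell types known to carry CCR3 gave mixed values. The 3 measured eosinophil markers, *Epx*, *Prg2*, and *Il5ra*, had a summed TPM of at most 1.05 in any rat, too low to be tested at any time point. Of 4 mast cell markers, *Cpa3*, *Tpsb2*, and *Ms4a2* were higher DEGs at Year 2, with log2 fold changes of 5.30, 6.16, and 4.16, while *Kit* was lower (-1.31). *Ccr3* was thus lowest in the group in which these 3 mast cell genes were highest. The marker lists of the cells known to carry CCR7 and CCR6 also moved. Of 4 mature dendritic cell markers, *Lamp3*, *Cd83*, and *Ccl22* were higher DEGs at every time point (*Lamp3* is also made by alveolar type II cells), while *Ccr7* was not higher. Of 6 B cell markers, 3 were lower DEGs at Year 0.5, 0 of 5 tested at Year 1, where edgeR had 1 lower by the FDR, and 2 of 5 at Year 2, beside *Ccr6*, which passed the FDR in edgeR at Year 1.

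**Figure D4:**
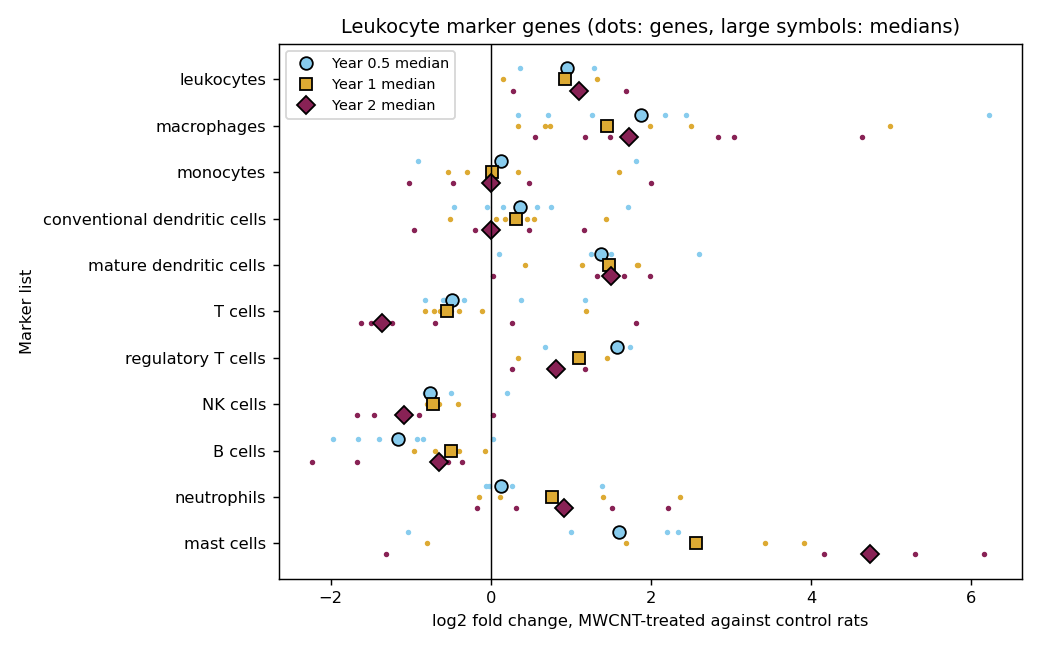
Log2 fold changes of MWCNT-treated against control rats (horizontal axis) for leukocyte marker genes (small dots) by list (vertical axis), with the list median as a large symbol for Year 0.5 (circle), Year 1 (square), and Year 2 (diamond). The medians of the macrophage list are 1.88, 1.45, and 1.73, and the median of the T cell list is -0.49, -0.55, and -1.36.

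Finally, the genes with the most similar pattern over the 18 rats were listed, by the root mean square difference of centered log2 CPM among 13941 genes. The nearest genes were *Slc6a6* (0.15) and *Atp6v1a* (0.16) for *Ccr1*, and *Cyfip2* (0.13) and *Nlrp3* (0.14) for *Cx3cr1*, beside SDs of 0.55 and 0.43 of these receptors over the rats. For *Ccr3*, *Epha8* (0.35) and the T cell gene *Cd3g* (0.37) were nearest but less close, beside an SD of 0.68. *Cxcr3* was nearest to the interferon-induced gene *Rsad2* (0.18) and to *Ubash3a* (0.21), and *Cxcr6* to the lymphocyte activation gene *Cd69* (0.24) and to *P2ry10* (0.27). The SDs of these receptors were 0.33 and 0.43, so that their nearest genes were not close either. The nearest genes were *Pcdhb19* (0.23) and *Crebrf* (0.24) for *Ccr6*, *Aqp4* (0.28) and *Wnt5a* (0.29) for *Ccr7*, and *Psmg2* (0.13) and *Rpl36al* (0.14) for *Cxcr4*. *Ccr6*, *Ccr7*, and *Cxcr4* had SDs of 0.42, 0.45, and 0.21, so that these matches were also not close.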

How the data were processed

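RNA-seq data of lungs from 18 rats were used, 3 per treatment and time point, grouped by the sample titles. The authors mapped reads to the rat genome (Rnor_6.0 per the labels) in CLC Genomics Workbench 22.0.2, and the authors deposited the count of reads per gene, without normalization. The deposited TPM values were scaled by the authors for gene length and library total. The deposited CPM values are TMM-adjusted by the authors and are a normalized signal, used for the order of groups and for whether groups overlap. The deposited RPKM and the authors' columns of fold changes and p-values were not used. The main tests used the counts, and limma was also run on the deposited TPM as an alternative.

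The counts were analyzed in R 4.3.3 with edgeR 4.0.16 (TMM, quasi-likelihood test, and filterByExpr, whose limits were 10 counts for a rat and 15 in total), with the 6 rats of a time point for treatment and all 18 rats for interactions and time. FDRs are Benjamini-Hochberg values over all genes tested. DEGs had to pass an FDR of 0.05 and an absolute log2 fold change of 1, and interactions the FDR only. The method was checked on simulated counts. Alternatives used limma 3.58.1 and DESeq2 1.42.0, other filters and scalings, a replicate block, and each rat left out. Python 3.11.15 was used for summaries.

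The members and lists were chosen with earlier results of these data known. All members found are named, as are list genes that were DEGs at any time, the marker genes, and the 2 genes nearest to each member among those with a mean CPM of at least 1 (log2 CPM with a prior count of 2). Each rat was a separate animal, so p-values measure the spread between rats. *Ackr1*, *Dock2*, *Ly6c*, *Klrb1a*, *Siglec8*, *Pecam1*, and *Foxj1* of the lists were not analysed here, and some other genes of the lists are not reported here and were left out of the counts. Intervals are 95% intervals of the fit.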

Additional observations from a re-analysis of the deposited data

Results flagged for a closer look

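The treatment effect on *Ccr3* differed between time points by the test of the interaction, with a log2 fold change lower at Year 2 than at Year 0.5 (difference -2.32, edgeR FDR 0.00531). The difference was between -2.57 and -2.15 over all alternatives, with an FDR of at most 0.0178, and it was called with each of the 18 rats left out in turn.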

How the results depend on the processing

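The 2 DEGs among the receptors at Year 2 were called under every alternative that kept the DEG criterion, and no direction of a called receptor was reversed. By the FDR alone, the number of receptors called was 2 at Year 0.5, 5 at Year 1, and 5 at Year 2. With rats left out in turn, the number of DEGs at Year 1 was 0 to 1 (1, *Cx3cr1*, without MWCNT replicate 3), the number with an effect of time in MWCNT rats was 1 to 2 between Year 2 and Year 0.5 and 0 to 1 between Year 2 and Year 1, and the number in control rats was 0 to 1 for each. The interaction of Year 2 and Year 0.5 was called for 1 to 2 receptors (2 without control replicate 3 of Year 2, the other being *Ccr1*, 0.79, FDR 0.0407). The interaction of Year 2 and Year 1 was called for 1 receptor, *Ccr3*, in the likelihood ratio test (-1.30, FDR 0.032). The call of *Ccr6* between Year 2 and Year 1 in control rats, close to the DEG limit, was lost (0 receptors) with no filter, with at least 10 counts in every rat, with library size only, with upper quartile normalization, and with the replicate block. It was also lost without control replicates 2 or 3 of Year 1, control replicates 1 or 2 of Year 2, or MWCNT replicate 3 of Year 0.5, with values from -1.08 to -0.85. The call of *Ccr3* between Year 2 and Year 0.5 in control rats was gained without control replicate 2 of Year 0.5 (1.01). *Cxcr6* was a DEG at Year 2 with limma on log2(TPM + 0.1) (-1.01, FDR 0.0141), a fit in which the median of all genes was -0.22. The cause of these changes was not tested, beyond the fewer rats of the left-out fits.

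With library size only, the median log2 fold change of all genes was -0.12, -0.13, and -0.18 at Years 0.5, 1, and 2, and the share of higher genes among all DEGs was 54.2%, 45.2%, and 37.5% in place of 66.7%, 60%, and 49.9%. The replicate numbers pair no rats, since deviations from the group mean of same-numbered rats correlated between -0.147 and 0.107 (mean 0.0068), across genes. With the replicate number as a block, the number of DEGs among the receptors was 0 at Year 0.5 and Year 1 and 2 at Year 2, and *Cxcr4* at Year 2 had an FDR of 0.0513. For *Ccr3*, with 18 to 25 reads in treated rats at Year 2, depth limits the precision.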
